A study of Mus musculus with 81 samples.

Results

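The genes described here are 10 that move lipid into, within and out of macrophages, namely Pparg, Nr1h3, Lpl, Cd36, Fabp4, Fabp5, Plin2, Abca1, Abcg1 and Apoe, chosen by symbol out of 55517 gene identifiers in the count tables. They were followed in macrophages of mice with a conditional knockout (cKO) of H3f3a and H3f3b, the genes of the histone variant H3.3, by RNA-seq of 81 libraries, of which 79 could be placed in 27 groups. All mice were on the C57BL/6 background. WT cells carried floxed H3f3a and H3f3b alleles (fl/fl) without Cre, and cKO cells carried the same floxed alleles with LysM cre/cre, which acts in macrophages and granulocytes and disrupts Lyz2, the gene into which the Cre was inserted. Bone marrow cells of mice aged 8–10 weeks were grown into bone marrow-derived macrophages (BMDMs) in L929-conditioned medium. Libraries of WT and cKO BMDMs came from days 3, 5 and 7 of culture, and from day 8 with or without 12 h of interferon gamma (IFNγ). Another experiment cultured both genotypes with no antibody, with an isotype control antibody or with an antibody that blocks the type I interferon receptor IFNAR1, each at 10 μg/mL, until day 6. A further 3 sets of WT and cKO BMDMs, numbered here 1 to 3, accompanied cKO BMDMs that also carried a constitutive StingKO, MavsKO or Irf7KO. Macrophages taken from the peritoneum of WT and cKO mice were the only cells not grown from bone marrow. Each group held 3 libraries, except the 2 cKO groups of day 8, which held 2.

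Macrophages take up fatty acids through the scavenger receptor CD36 and by way of lipoprotein lipase (Lpl), carry them on fatty acid binding proteins (Fabp4, Fabp5), and store them as triglyceride and cholesterol ester in droplets coated by perilipin 2 (Plin2). Cholesterol leaves the cell through the transporters ABCA1 and ABCG1 to acceptors such as apolipoprotein E (Apoe). The nuclear receptors PPARγ (Pparg) and LXRα (Nr1h3) bind lipid ligands and turn on many genes of uptake and storage and of efflux, respectively.

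Depth ranged from 3614967 to 45581528 counts assigned to genes per library. H3f3a and Lyz2 followed the genotype labels, with H3f3a at 1.21–15.3 CPM (counts scaled by library size) in the 43 cKO libraries against 33.6–93.8 in the 36 WT libraries, and Lyz2 at 1.69–81.9 against 4465–76406. H3f3b, the other targeted gene, did so in the antibody experiment alone, at 16.7–67.8 CPM in cKO against 295–468 in WT (log2 fold changes of -2.92 to -3.11, called in 3 of 3 comparisons). In the other 9 comparisons of genotypes it did not pass, at -0.16 to -0.41. Its median in cKO and WT was 175 and 224 CPM in the time course, 212 and 278 on day 8, and 323 and 424 in the peritoneum. In the sets it was 195 and 255 CPM, with libraries at 71.9–220 and 200–285, where the cKO values pool the doubles with the cKO sets. In these experiments cKO therefore names the genotype and not an absence of H3f3b transcripts. The gene disrupted in the doubles was lower in the StingKO libraries (Tmem173 at 5.01–6.10 CPM against 68.2–91.6 in the cKO sets) and in the Irf7KO libraries (Irf7 at 98.3–112 against 248.6–470), but in the libraries labelled MavsKO Mavs stood at 37.2–37.9 CPM, below 42.9–51.6 in cKO set 1 and 48.5–51.0 in set 2 but within 36.0–41.9 in set 3, so this count does not check that label. Libraries differed in sex chromosome transcripts, a property the labels do not give per library. Xist was present without Y-linked transcripts in all 18 antibody libraries, in the 9 libraries of set 2 and MavsKO, and in 2 libraries each of day 8 and the peritoneum, while the 18 other libraries of the sets and doubles and all 18 of the time course had Y-linked transcripts and no Xist. Library 1 of IFNγ-treated cKO BMDMs held both, had the smallest total count, and had a normalization factor of 0.46 where the next lowest of that experiment was 0.891. Of its reads 57.1% were unmapped. Calls of members that changed without it are given with and without it, while the group levels, marker sums and pathway counts include it. Markers of macrophages were present in every group (summed level 2786–11731 CPM over 8 genes), and a list of 8 adipocyte markers, cells that share several of these genes, summed to 0–9.80 CPM.

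The 10 genes lie on 8 chromosomes of GRCm38. By the GENCODE M21 annotation, Pparg spans chr6:115360951-115490399 (plus strand), Nr1h3 chr2:91184061-91202834 (minus), Lpl chr8:68880491-68907448 (plus), Cd36 chr5:17781690-17888801 (minus), Fabp4 chr3:10204088-10208576 (minus), Fabp5 chr3:10012548-10016607 (plus), Plin2 chr4:86648386-86670060 (minus), Abca1 chr4:53030787-53159895 (minus), Abcg1 chr17:31057675-31117988 (plus) and Apoe chr7:19696109-19699188 (minus). Nr1h3 shares 34 exonic bases with Gm13783 on the same strand, and Fabp5l2, a locus similar in name to Fabp5, received 328 counts over all libraries together. PPARγ and LXRα bind DNA next to their partner RXR at repeats of the motif AGGTCA, so the RefSeq promoter windows (GRCm38.p6, 300 bases around a transcript start) were searched on both strands. The motif was found in 4 of the 11 windows available for 6 of these genes, and in 16.3% of 32851 windows of all genes. Neither the repeat AGGTCANAGGTCA (0.0396% of all windows) nor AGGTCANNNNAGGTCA (0.0152%) was in any of the 11, nor were GAAANNGAAA (3.44%) or TTCNNNGAA (8.30%), letters of interferon response and gamma activated elements. The windows with the motif belong to Cd36, Plin2 and 2 starts of Pparg, while those of Nr1h3, Abca1 and Apoe did not hold it. They are shown with it in capitals, read 5′ to 3′ on the strand of the gene up to the base before the start; it reads AGGTCA in Pparg and its reverse complement, TGACCT, in Cd36 and Plin2.
Cd36, chr5:17835897-17836146, minus strand: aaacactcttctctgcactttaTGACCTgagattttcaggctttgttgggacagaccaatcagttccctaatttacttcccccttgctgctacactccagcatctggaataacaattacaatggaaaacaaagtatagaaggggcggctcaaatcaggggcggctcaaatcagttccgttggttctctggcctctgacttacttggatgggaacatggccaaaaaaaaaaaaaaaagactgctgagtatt
Plin2, chr4:86670060-86670309, minus strand: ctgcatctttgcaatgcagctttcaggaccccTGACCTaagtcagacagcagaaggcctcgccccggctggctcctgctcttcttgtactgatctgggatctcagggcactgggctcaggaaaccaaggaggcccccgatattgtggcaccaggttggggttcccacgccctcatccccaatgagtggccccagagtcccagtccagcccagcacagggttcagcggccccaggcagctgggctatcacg
Pparg, start 1, chr6:115361084-115361143, plus strand: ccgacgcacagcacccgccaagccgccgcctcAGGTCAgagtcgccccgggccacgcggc
Pparg, start 2, chr6:115362289-115362348, plus strand: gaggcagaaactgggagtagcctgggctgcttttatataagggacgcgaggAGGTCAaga
The motif begins 228 bases before the start in Cd36, 218 in Plin2, and 28 and 9 in the 2 Pparg windows. A match of letters is a description of these windows and not evidence of binding.

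Levels below are CPM scaled by edgeR's trimmed mean of M values (TMM) within each experiment, listed in the order of the replicate numbers, so a level set beside one of another experiment was scaled separately. Per kilobase of the principal transcript, the WT BMDMs of set 2 held 1862 CPM of Lpl, 1209 of Apoe, 740 of Cd36, 533 of Plin2 and 135 of Fabp5, and under 50 CPM of each of the others, from 44.6 for Pparg to 7.38 for Nr1h3. In WT peritoneal macrophages Apoe stood at 13615 CPM per kilobase, Plin2 at 629, Fabp4 at 503 and Cd36 at 337, while Pparg was at 0.423. The tissue macrophages thus held the highest group means of Apoe and Fabp4 and the lowest of Pparg, Lpl and Abcg1. The methods name another library kit for these cells than the labels do, so tissue and library protocol cannot be told apart in this ranking. Among the cultured groups, set 2 held the highest Pparg (mean 78.8 CPM in WT), Lpl (7661 CPM) and Cd36 (2514 CPM), and IFNγ-treated cKO BMDMs the highest Abcg1 (777 CPM) and Nr1h3 (31.3 CPM) together with the lowest Abca1 (60.5 CPM).

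Across the 12 comparisons of cKO with WT, the fatty acid carriers and Apoe were lower in nearly all, and the nuclear receptors higher in most. The log2 fold change of Fabp5 was negative in 12 of 12 comparisons and passed the test (edgeR's quasi-likelihood F test, Benjamini-Hochberg adjusted p under 0.05 over all genes of the experiment) in 3. Fabp4 was negative in 11 and passed as lower in 3, and Apoe was negative in 11 and passed as lower in 4. Nr1h3 was positive in 11 and passed as higher in 4, Pparg positive in 10 and passed in 2, and Plin2 positive in 9 and passed in 4. The efflux transporters moved both ways, Abcg1 passing as higher in 3 and lower in 2 comparisons, and Abca1 as higher in 1 and lower in 3. Lpl and Cd36 were each positive in 6 and negative in 6, Lpl passing as higher in 2 and Cd36 as higher in 2 and lower in 1. The comparisons share no libraries with each other, but same-numbered WT libraries of sets 1 and 3 deviated from their group means together (r = 0.68, 0.61 and 0.28 across 8995 genes), so these sets may not be independent. The calls counted above for Pparg and Lpl, the higher ones of Cd36 and the lower ones of Abcg1 came from these 2 sets alone, and those of Fabp4 and Fabp5 from sets 1 to 3.

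**Figure D1:**
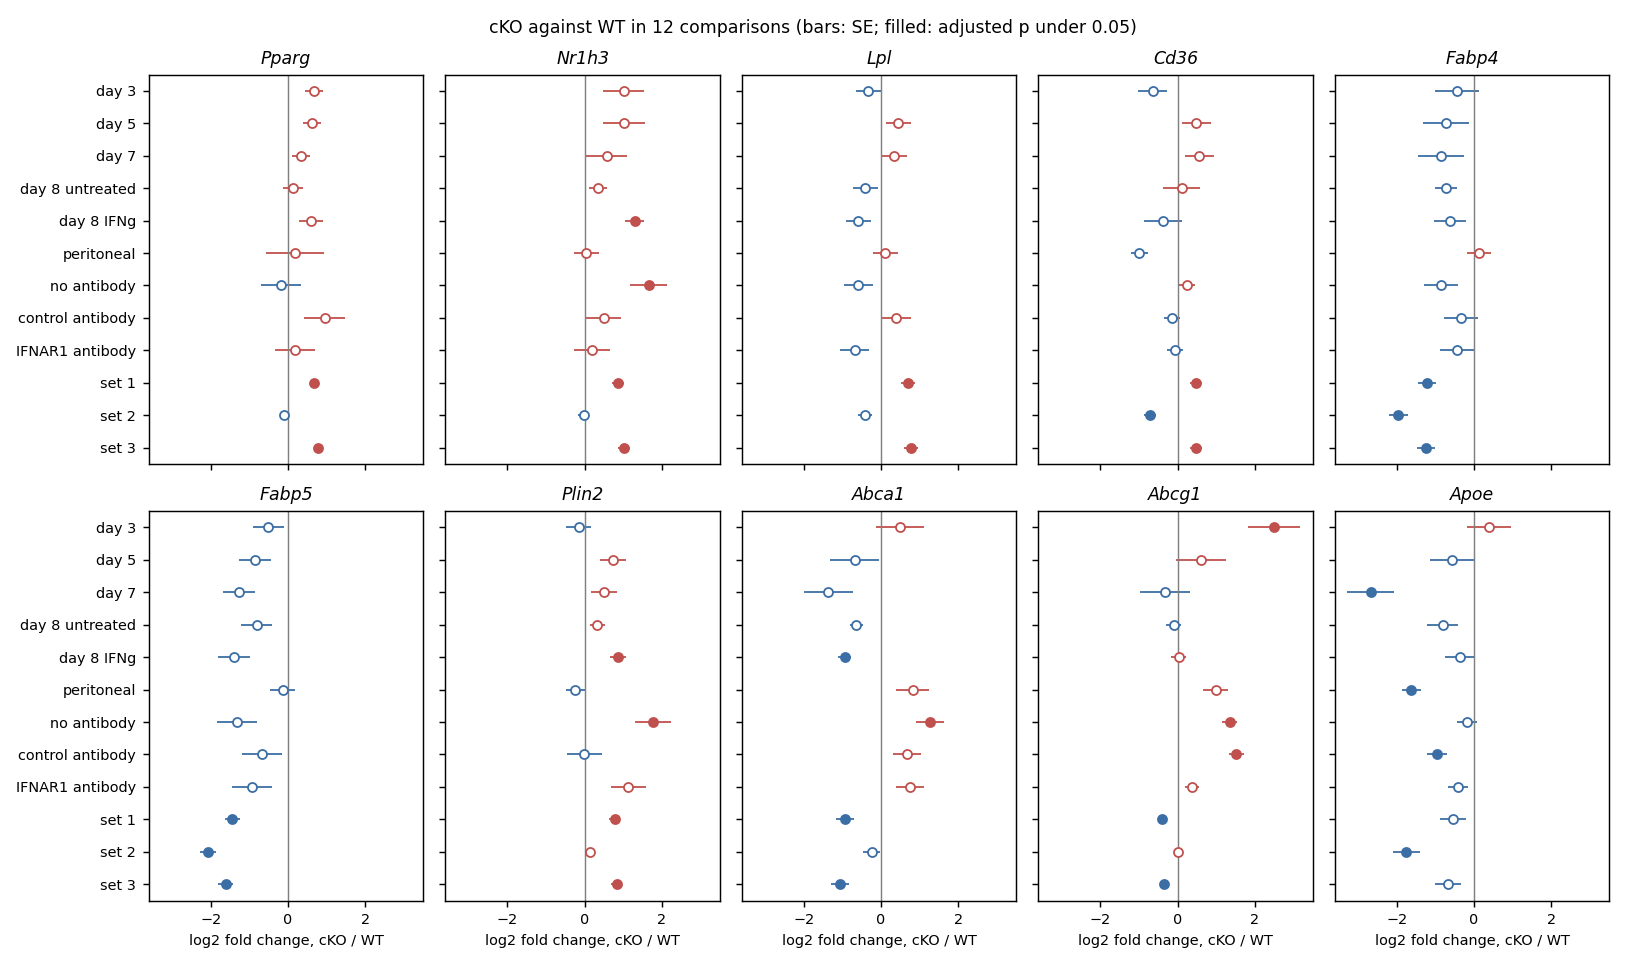
Log2 fold change of cKO over WT (horizontal axis, points with bars of 1 standard error) for each of the 10 genes in the 12 comparisons (vertical axis), filled where the adjusted p was under 0.05. Fabp5 lies left of 0 in all 12, from -2.07 in set 2 to -0.14 in peritoneal macrophages, and Abcg1 lies on both sides, from 2.50 on day 3 to -0.39 in set 1.

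Sets 1 and 3 gave the most calls. In each, 5 of the 10 genes were higher and 4 lower in cKO, where 34.7% of all tested genes passed in set 1 and 34.9% in set 3. The sensors, the lipase, Cd36 and the droplet coat protein were higher, and the fatty acid carriers and both transporters lower. Pparg, the receptor of fatty acid ligands, stood at 24.9, 21.5 and 29.6 CPM in WT set 1 and 42.5, 38.9 and 39.8 in cKO set 1. In set 3 it stood at 21.8, 21.6 and 24.5 CPM in WT and 41.5, 38.5 and 36.8 in cKO. Every cKO library was above every WT library of its set, with a log2 fold change of 0.68 ± 0.09 (SE) in set 1 (edgeR adjusted p = 3.7e-06) and 0.78 ± 0.09 in set 3 (adjusted p = 5.15e-07). Nr1h3, the LXRα gene, was at 6.50, 4.44 and 9.26 CPM in WT and 12.2, 11.6 and 12.3 in cKO of set 1. In set 3 it was at 5.89, 5.38 and 6.64 CPM against 12.1, 12.4 and 12.1. The groups did not overlap in either set, and the log2 fold changes were 0.86 ± 0.15 (edgeR adjusted p = 0.000107) and 1.03 ± 0.15 (adjusted p = 1.05e-05).

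On the uptake and storage side of sets 1 and 3, Lpl, Cd36 and Plin2 rose. Lpl, which frees fatty acids from triglyceride-rich lipoproteins, was at 1584, 1307 and 1440 CPM in WT set 1 and 2514, 2495 and 2023 in cKO, and at 1173, 1238 and 1556 against 2350, 2387 and 2048 in set 3. The log2 fold changes were 0.70 ± 0.18 (edgeR adjusted p = 0.00329) and 0.77 ± 0.18 (adjusted p = 0.00136), with no overlap. Plin2 stood at 482, 380 and 537 CPM in WT set 1 against 800, 730 and 872 in cKO, and at 448, 371 and 382 against 627, 787 and 732 in set 3. Its cKO libraries were likewise all above WT, by 0.78 ± 0.14 (edgeR adjusted p = 0.000127) and 0.84 ± 0.14 (adjusted p = 5.37e-05) on the log2 scale. Cd36 was at 693, 753 and 644 CPM in WT set 1 and 972, 970 and 952 in cKO, and at 466, 782 and 841 against 936, 959 and 1013 in set 3. The log2 fold changes of 0.47 ± 0.15 (edgeR adjusted p = 0.0194) and 0.48 ± 0.15 (adjusted p = 0.0173) were the less stable ones. Without WT replicate 3 of set 1 the value was 0.42 (adjusted p = 0.0753), without WT replicate 1 of set 3, the lowest library, 0.26 (adjusted p = 0.129), and without cKO replicate 3 of set 3 0.45 (adjusted p = 0.058).

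The fatty acid carriers went the other way in the same libraries. Fabp4, a cytosolic carrier abundant in adipocytes and macrophages, was at 8.80, 9.79 and 9.81 CPM in WT set 1 against 3.96, 4.31 and 3.90 in cKO, and at 10.03, 15.2 and 11.6 against 4.60, 6.31 and 4.73 in set 3. The log2 fold changes were -1.22 ± 0.24 (edgeR adjusted p = 0.000332) and -1.24 ± 0.23 (adjusted p = 0.000209). Fabp5, its neighbour on chromosome 3 and the more abundant of the pair in BMDMs (199 against 10.6 CPM per kilobase in WT set 1), was at 151, 221 and 217 CPM in WT set 1 against 68.9, 73.3 and 73.7 in cKO, and at 138, 281 and 244 against 62.0, 84.0 and 69.4 in set 3. Both genes were lower in every cKO library than in any WT library, with Fabp5 changed by -1.45 ± 0.20 (edgeR adjusted p = 4.38e-06) and -1.62 ± 0.20 (adjusted p = 9.5e-07) on the log2 scale.

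On the efflux side of sets 1 and 3, Abca1 and Abcg1 fell and Apoe did not pass the test. Abca1, which loads cholesterol onto lipid-poor apolipoprotein A1, was at 1007, 559 and 707 CPM in WT set 1 against 438, 357 and 400 in cKO, and at 1272, 568 and 623 against 437, 375 and 364 in set 3. The log2 fold changes were -0.93 ± 0.23 (edgeR adjusted p = 0.00261) and -1.07 ± 0.23 (adjusted p = 0.000744), and replicate 1 was the highest WT library in both sets. Without it the values were -0.66 and -0.60 and still passed. Abcg1, which exports cholesterol to high-density lipoprotein, was at 368, 373 and 455 CPM against 345, 248 and 317 in set 1 and at 342, 301 and 311 against 269, 244 and 241 in set 3. The groups did not overlap, but the changes were small, -0.39 ± 0.12 (edgeR adjusted p = 0.00981) and -0.34 ± 0.12 (adjusted p = 0.024). The Abcg1 call of set 1 was lost without WT replicate 3 or cKO replicate 2 (log2 fold change -0.28 and -0.26), and that of set 3 without WT replicate 1, cKO replicate 2 or cKO replicate 3 (-0.29 to -0.31, adjusted p up to 0.0906). Apoe, a secreted acceptor of cholesterol, was at 2639, 800 and 2339 CPM in WT set 1 and 1458, 1171 and 1306 in cKO, and at 3525, 920 and 1675 against 1253, 1439 and 1157 in set 3. WT replicate 2 was the lowest library of each set and the groups overlapped, at log2 fold changes of -0.55 ± 0.34 (edgeR adjusted p = 0.221) and -0.67 ± 0.34 (adjusted p = 0.134). Without WT replicate 2 of the set, Apoe passed as lower in both, at -0.92 (edgeR adjusted p = 0.0209) and -1.02 (adjusted p = 0.0142).

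**Figure D2:**
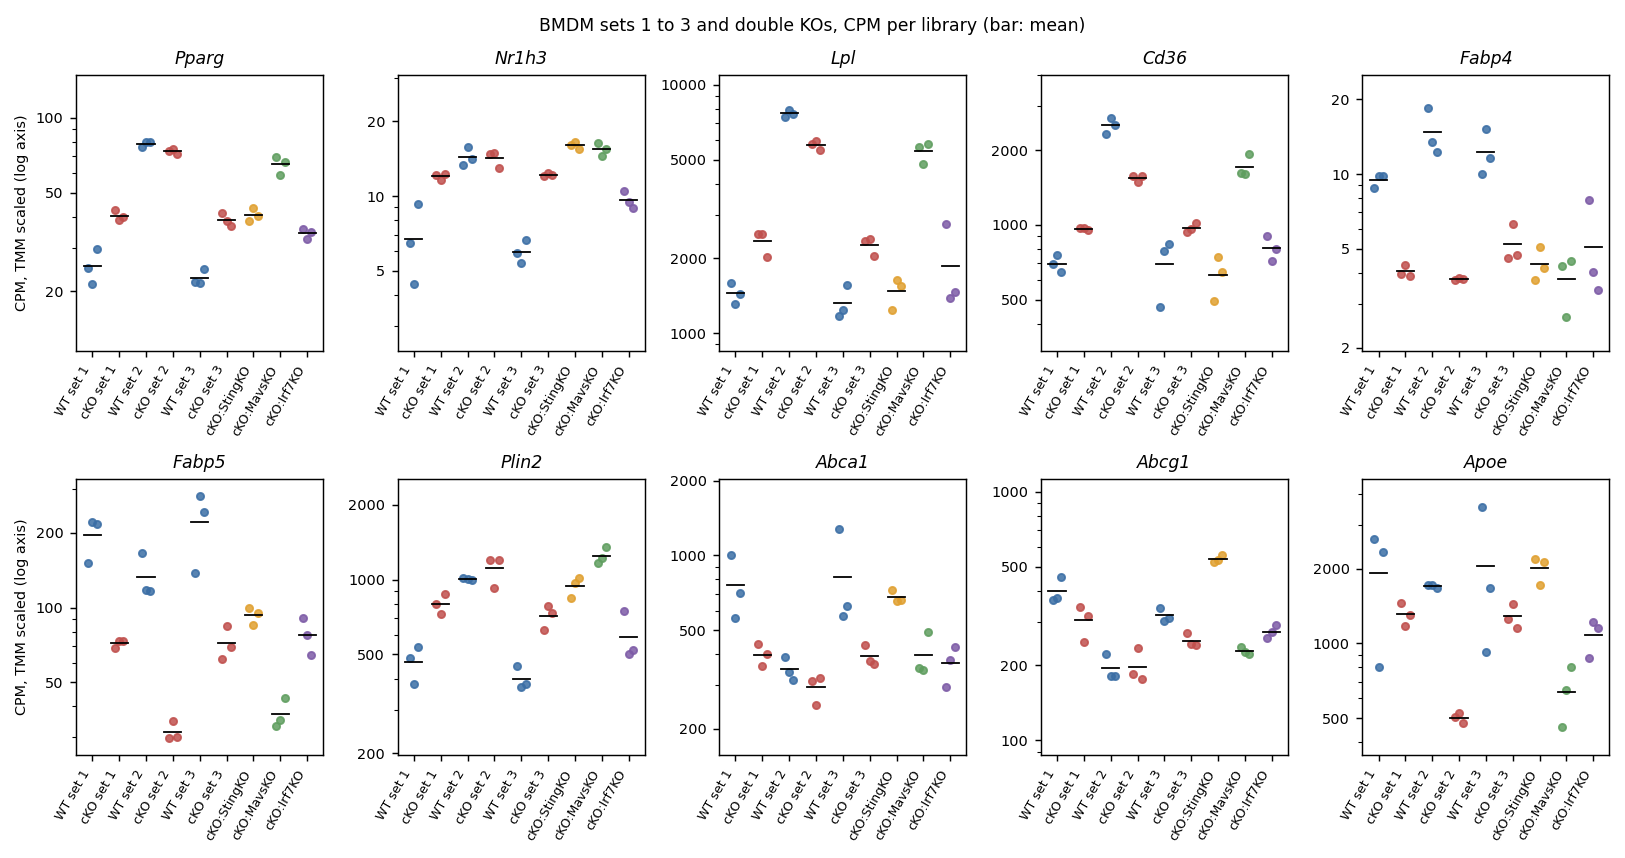
Levels of the 10 genes in CPM (vertical log axes, 1 point per library, bar at the mean) in WT and cKO of sets 1 to 3 and in the 3 double knockouts (horizontal axis). Pparg in set 2 sits at 71.7–80.3 CPM in both genotypes, above all libraries of sets 1 and 3, and Abcg1 in StingKO sits at 520–559 CPM, above every cKO library.

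In set 2 the fatty acid carriers were lower as well, with Apoe and Cd36. There 0 genes were higher and 4 lower, where 21.0% of all genes passed. Fabp4 was at 18.4, 13.5 and 12.2 CPM in WT and 3.76, 3.81 and 3.79 in cKO, and Fabp5 at 166, 117 and 116 against 29.9, 35.0 and 30.1. Neither overlapped, with log2 fold changes of -1.96 ± 0.24 for Fabp4 (edgeR adjusted p = 1.2e-06) and -2.07 ± 0.20 for Fabp5 (adjusted p = 5.54e-08). Apoe was at 1723, 1710 and 1674 CPM in WT and 505, 523 and 478 in cKO, a change of -1.76 ± 0.35 (edgeR adjusted p = 0.000561) between tight groups. Cd36 was at 2328, 2684 and 2530 CPM against 1577, 1485 and 1565, a change of -0.70 ± 0.15 (edgeR adjusted p = 0.0014) in the direction opposite to that in sets 1 and 3. Pparg was at 76.2, 80.3 and 79.9 CPM in WT and 73.4, 75.0 and 71.7 in cKO, a log2 difference of -0.10 with a 95% interval of -0.28 to 0.07. Lpl was at 7433, 7949 and 7600 CPM against 5766, 5954 and 5441, without overlap but short of the threshold at -0.42 ± 0.18 (edgeR adjusted p = 0.0959). The intervals of Plin2 (-0.13 to 0.42), Abca1 (-0.69 to 0.20), Abcg1 (-0.21 to 0.25) and Nr1h3 (-0.30 to 0.26) all included 0.

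The difference between the set 2 effect and the mean effect of sets 1 and 3 was tested after the data had been seen, and 8 of the 10 genes passed, where 27% of all genes did. The cKO effect in set 2 was lower for Cd36 by -1.18 ± 0.19 (edgeR adjusted p = 6.03e-05), for Lpl by -1.16 ± 0.22 (adjusted p = 0.000338), for Nr1h3 by -0.97 ± 0.18 (adjusted p = 0.000304), for Pparg by -0.83 ± 0.11 (adjusted p = 6.15e-06) and for Plin2 by -0.67 ± 0.17 (adjusted p = 0.0055). These 5 passed whichever of the 18 libraries was left out. Apoe was also lower, by -1.15 ± 0.42 (edgeR adjusted p = 0.0432), and Abca1 and Abcg1 were higher, by 0.75 ± 0.28 (adjusted p = 0.0475) and 0.39 ± 0.14 (adjusted p = 0.0445). Those calls were frail, kept in 7, 6 and 9 of the 18 fits that left out 1 library, with adjusted p up to 0.0912 for Apoe, 0.118 for Abca1 and 0.215 for Abcg1, which came to 0.25 without cKO replicate 2 of set 2. Fabp4 and Fabp5, lower in all 3 sets, did not pass (-0.73 ± 0.29, adjusted p = 0.06, and -0.54 ± 0.24, adjusted p = 0.0989). The libraries of set 2 had Xist and those of sets 1 and 3 had Y-linked transcripts, so sex and set cannot be told apart. The fit took all 18 libraries as independent, sets 1 and 3 included.

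Markers of other cells, myeloid and not, differed along with genotype in these sets. Of 10 tested neutrophil and granulocyte precursor markers, 6 were higher in cKO of sets 1 and 3 and 3 in set 2, and the summed level of all 11 listed was 63.4–118 CPM in WT against 225–315 in cKO of set 1, 105–184 against 163–184 in set 2, and 71.7–127 against 220–362 in set 3. Of 5 monocyte markers, 4 were higher in cKO of every set, with sums of 121–252 against 294–483 CPM, 78.0–120 against 358–415 and 125–291 against 333–447. The sum of 7 dendritic cell markers moved with genotype in opposite directions, from 11.9–22.0 CPM in WT to 42.9–46.3 in cKO of set 1 and from 12.6–18.8 to 37.9–47.0 in set 3, but from 72.5–104 to 17.7–20.9 in set 2. Most of it was Itgax, a gene that macrophages also express, changed by 1.39 ± 0.25, 1.41 ± 0.25 and -2.70 ± 0.25 in sets 1, 3 and 2. Of all 7 markers, 5 passed as higher and 1 as lower in sets 1 and 3, and 4 and 1 in set 2. The 10 interferon-induced genes summed to 148–352 CPM in WT and 685–1082 in cKO. No listed macrophage, monocyte or neutrophil marker was at 0 in these groups. Their part in the results was not tested, and in bulk RNA fewer cells of a type cannot be told apart from less RNA per cell.

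Among 116 further genes of lipid handling in 7 lists, more were lower than higher in cKO of every set: 38 lower and 17 higher of 103 tested in set 1, 32 and 5 in set 2, and 37 and 17 in set 3. Of all tested genes, 34.7% passed in set 1 (3026 lower and 3249 higher), 21.0% in set 2 (2042 and 1761) and 34.9% in set 3 (3254 and 3064). The genes of efflux and LXR response besides the transporters above numbered 7 lower and 1 higher of 13 in both set 1 and set 3, with medians of -0.61 and -0.67 on the log2 scale where the median of all genes was -0.03 and -0.05. The largest falls of set 1 were in Scd1 and Scd2, stearoyl-CoA desaturases, by -4.57 ± 0.56 and -2.93 ± 0.40, and in the scavenger receptor Marco by -3.80 ± 0.61. The largest rises there were in the oxidized lipoprotein receptor Olr1 (2.74 ± 0.41), the scavenger receptor Colec12 (1.73 ± 0.28) and the acyltransferase Mogat2 (1.56 ± 0.38). Set 3 named the same 6 genes, from -4.64 ± 0.57 for Scd1 to 2.01 ± 0.35 for Olr1. In set 2 Marco (-4.03 ± 0.71), Scd2 (-3.11 ± 0.41) and Scd1 (-2.90 ± 0.57) fell and Mogat2 (1.55 ± 0.38), the fatty acid hydroxylase Cyp4f18 (1.85 ± 0.41) and Smpdl3a (0.71 ± 0.15), an LXR target, rose.

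Double knockouts were compared with the mean of the 3 cKO sets, since the labels do not say which set belongs to which double. They were then compared with each set alone. Libraries of set 2 and MavsKO had Xist, and those of sets 1 and 3, StingKO and Irf7KO had Y-linked transcripts. In calls against the mean, sex and set therefore cannot be told apart from the double knockout. The marker and pathway counts given for the doubles were also made against that mean. In StingKO, 5 genes were higher and 3 lower than the mean of the cKO sets, where 36.1% of all genes passed. Abcg1 was at 520, 529 and 559 CPM, above all 9 cKO libraries at 176–345, with a log2 fold change of 1.12 ± 0.09 (edgeR adjusted p = 6.05e-09). Abca1 was at 728, 655 and 662 CPM, above 251–438 in cKO, at 0.93 ± 0.18 (edgeR adjusted p = 0.000263). Lpl was at 1237, 1631 and 1547 CPM, below 2023–5954, at -1.08 ± 0.15 (edgeR adjusted p = 1.27e-05), and Cd36 at 492, 741 and 643, below 936–1577, at -0.85 ± 0.13 (adjusted p = 3.04e-05). These 4 calls held against each cKO set alone, where 22.5%, 33.7% and 31.7% of all genes passed for sets 1, 2 and 3. The smallest of those log2 fold changes were 0.82 for Abcg1, 0.78 for Abca1, -0.62 for Lpl and -0.63 for Cd36.

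The other StingKO calls depended on the set. Apoe was at 2186, 1710 and 2120 CPM, 1.08 ± 0.26 above the mean of the cKO sets (edgeR adjusted p = 0.00232), which came to 2.0 against set 2 and did not pass against set 1 (0.61, adjusted p = 0.205) or set 3 (0.64, adjusted p = 0.156). Fabp5, at 99.8, 85.2 and 95.4 CPM, was 0.77 ± 0.15 above the mean (edgeR adjusted p = 0.000413), and passed against set 2 (1.56) but not against set 1 or 3 (0.38 each). Pparg, at 38.4, 43.5 and 40.3 CPM, was -0.26 ± 0.07 below the mean (edgeR adjusted p = 0.00902) and -0.85 below set 2, but stood at 0.01 against set 1 and 0.07 against set 3, and its call was lost without StingKO replicate 1 (adjusted p = 0.0725). Nr1h3, at 16, 16.5 and 15.5 CPM, was 0.33 ± 0.12 above the mean (edgeR adjusted p = 0.0302), and passed against sets 1 and 3 (0.41 and 0.39) but not set 2 (0.17), and its call was lost without any 1 of the 3 StingKO libraries or cKO replicate 3 of set 2, at 0.30–0.35 and adjusted p up to 0.104. Stromal markers summed to 164–202 CPM in StingKO against 23.3–70.9 in the cKO sets, 4 of 6 tested passing as higher. The summed level of the 10 interferon-induced genes was 1264–1611 CPM in StingKO.

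The calls of the other doubles depended on which set they were compared with. In the libraries labelled MavsKO 4 genes were higher and 1 lower than the mean of the cKO sets (8.79% of all genes passed), at 0.79 ± 0.14 for Lpl (edgeR adjusted p = 0.000488), 0.60 ± 0.12 for Cd36 (adjusted p = 0.00192), 0.53 ± 0.11 for Plin2 (adjusted p = 0.00277), 0.42 ± 0.07 for Pparg (adjusted p = 0.00039) and -0.55 ± 0.17 for Fabp5 (adjusted p = 0.0377). Against set 2 alone 0 passed, also at an unadjusted p under 0.05 (0.487% of all genes), and the log2 fold changes of Lpl (-0.08), Pparg (-0.18) and Fabp5 (0.24) had the opposite sign. Against set 1 alone 4 genes were higher and 3 lower (12.8% of all genes), and against set 3 alone 4 higher and 2 lower (18.1%). Pparg, for example, was at 69.9, 58.7 and 66.4 CPM in MavsKO, next to 71.7–75.0 in cKO set 2 and far from 36.8–42.5 in cKO sets 1 and 3. The Fabp5 call was lost in 7 of the 12 fits without 1 library, those without any MavsKO library, cKO replicates 2 and 3 of set 1, replicate 2 of set 2 and replicate 2 of set 3, at -0.48 to -0.67 and adjusted p up to 0.177. Beside these, stromal markers summed to 84.4–299 CPM in MavsKO and 6 of 6 tested were higher, while 7 of 10 neutrophil markers were lower.

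In Irf7KO 1 gene was higher and 5 lower than the mean of the cKO sets (9.85% of all genes), at 0.51 ± 0.16 for Fabp5 (edgeR adjusted p = 0.0386), -0.75 ± 0.15 for Lpl (adjusted p = 0.00226), -0.55 ± 0.12 for Plin2 (adjusted p = 0.00404), -0.51 ± 0.08 for Pparg (adjusted p = 9.93e-05), -0.49 ± 0.13 for Cd36 (adjusted p = 0.0168) and -0.41 ± 0.12 for Nr1h3 (adjusted p = 0.0328). Against set 1 alone 0 passed by edgeR and 3 at an unadjusted p under 0.05 (7.83% of all genes), and against set 3 alone 0 and 1 (0.890%), so that 0 members passed against either, while against set 2 alone 3 were higher and 5 lower (19.6%). Pparg, at 35.6, 32.5 and 34.7 CPM, lay below all 9 cKO libraries but near those of set 3 (36.8–41.5). The Fabp5 call was kept in 3 of 12 fits without 1 library, that of Nr1h3 in 8, Cd36 in 10 and Plin2 in 11, and leaving out Irf7KO replicate 2 lost all 4. Lpl came to -1.14 without Irf7KO replicate 1. Neutrophil markers passed as lower in 9 of 10 and monocyte markers in 5 of 5 in this comparison. Of 103 further lipid genes tested, 34 were higher and 15 lower in StingKO (36.1% of all genes passed), 7 and 6 in MavsKO (8.79%), and 9 and 7 in Irf7KO (9.85%). The droplet and triglyceride list had 8 higher and 1 lower of 17 in StingKO. Named by the fixed rule were Cyp27a1 (0.95 ± 0.25), Mertk (0.82 ± 0.11) and Abcb4 (-0.82 ± 0.08) in StingKO, the kinase Pdk4 (3.59 ± 0.44) in MavsKO, and Abca9 (1.03 ± 0.21) and the lipase inhibitor Angptl4 (-1.46 ± 0.27) in Irf7KO.

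With IFNγ 5 of the 10 genes were called in each genotype, near the share of all genes (40.1% in WT and 33.6% in cKO). Abcg1, Abca1, Fabp4 and Pparg were called in both, Plin2 in WT alone and Nr1h3 in cKO alone. In WT BMDMs 1 gene was higher and 4 were lower after 12 h, where 40.1% of all genes passed. Abcg1 rose from 158, 166 and 151 CPM to 660, 888 and 745, a log2 fold change of 2.27 ± 0.18 (edgeR adjusted p = 8.53e-06), while Abca1 fell from 185, 243 and 205 to 119, 126 and 109, by -0.84 ± 0.15 (adjusted p = 0.00146). The transporters thus moved in opposite directions, and neither pair of groups overlapped. Fabp4 fell from 25.5, 33.5 and 25.9 CPM to 6.86, 2.68 and 4.09, by -2.61 ± 0.28 (edgeR adjusted p = 6.11e-05). Pparg fell from 16.9, 32.2 and 21.9 CPM to 10.6, 6.85 and 7.35, by -1.51 ± 0.25 (edgeR adjusted p = 0.000958), and Plin2 from 306, 461 and 392 to 230, 201 and 197, by -0.88 ± 0.19 (adjusted p = 0.00378). None of these 5 calls was lost in any alternative fit. Fabp5 (311, 363 and 319 CPM before and 496, 376 and 457 after), Cd36, Lpl, Nr1h3 and Apoe did not pass, with adjusted p from 0.378 to 0.989.

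In cKO BMDMs 2 genes were higher and 3 lower with IFNγ (33.6% of all genes passed). Abcg1 stood at 140 and 155 CPM untreated and at 631 and 923 with IFNγ, a log2 fold change of 2.40 ± 0.23 (edgeR adjusted p = 4.56e-05). Fabp4 went from 18.7 and 15.5 CPM to 2.41 and 3.18 (-2.51 ± 0.41, edgeR adjusted p = 0.00116), and Abca1 from 135 and 134 to 53.1 and 68.0 (-1.14 ± 0.19, adjusted p = 0.0013). These 3 calls were kept whichever library was left out, but that of Abca1 was not kept under every other alternative. Pparg went from 25.3 and 26.5 CPM to 12.7 and 12.6 (-1.04 ± 0.32, edgeR adjusted p = 0.0293), a call lost without either untreated library or IFNγ replicate 2 (-1.02 to -1.08, adjusted p up to 0.1). Nr1h3 went from 13.7 and 19.9 CPM to 28.98 and 33.6 (0.92 ± 0.26, edgeR adjusted p = 0.0221), lost without untreated replicate 1 (0.66, adjusted p = 0.174) or IFNγ replicate 2 (0.76, adjusted p = 0.0963). Replicate 1 of this group, the library with both sex chromosome signals, had the lowest Cd36 (124 CPM beside 483), Fabp5 (68.8 beside 261) and Lpl (955 beside 2284), and the higher Apoe (2079 beside 895). Without it Fabp5 and Lpl passed as higher with IFNγ (0.50, edgeR adjusted p = 0.0333, and 0.65, adjusted p = 0.0317), and without replicate 2 they passed as lower (-1.48, adjusted p = 0.000243, and -0.66, adjusted p = 0.0416). The difference in IFNγ response between the genotypes passed for 0 members and 0 of all genes by edgeR (0%), with 1 member, Nr1h3 (0.96 ± 0.34, adjusted p = 0.543), and 1105 genes at an unadjusted p under 0.05, and 0 members by DESeq2.

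**Figure D3:**
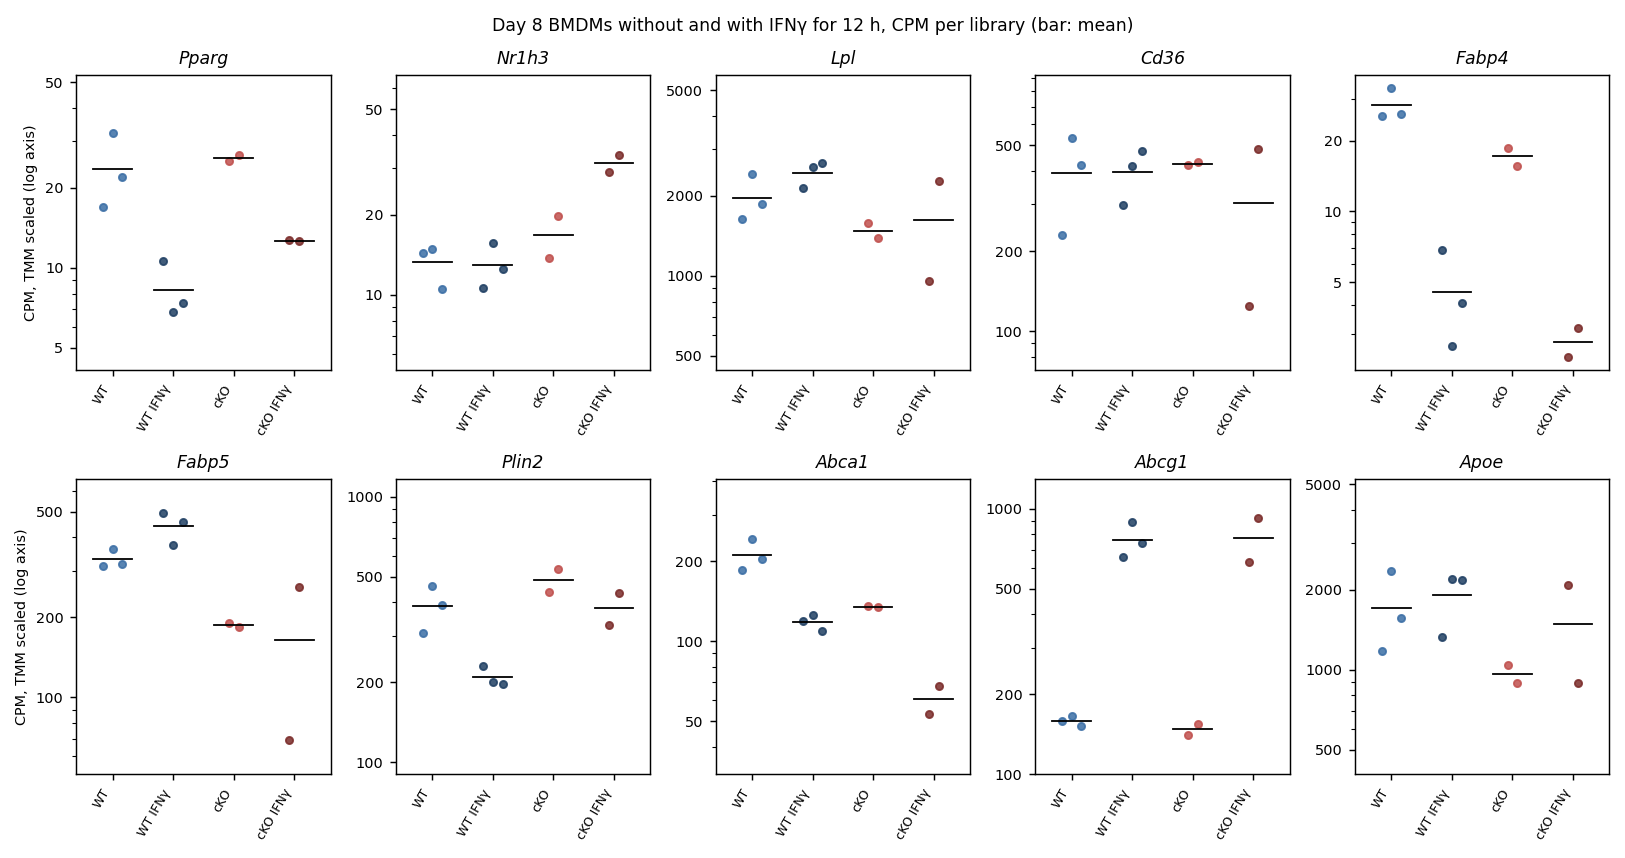
Levels of the 10 genes in CPM (vertical log axes, 1 point per library, bar at the mean) on day 8 in WT and cKO BMDMs, untreated or with IFNγ for 12 h (horizontal axis). Abcg1 goes from 140–166 to 631–923 CPM with IFNγ over both genotypes while Abca1 and Fabp4 go down, and the cKO IFNγ libraries lie far apart in Cd36, Fabp5 and Lpl.

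Between genotypes on day 8, 0 genes passed without IFNγ, where 0.612% of all genes did by edgeR; 2 members had an unadjusted p under 0.05, and DESeq2 called 1. Abca1 came nearest, at -0.65 ± 0.17 (edgeR adjusted p = 0.207). With IFNγ, Nr1h3 and Plin2 were higher and Abca1 lower in cKO, where 4.83% of all genes passed. Nr1h3 was at 10.6, 15.6 and 12.5 CPM in WT and 28.98 and 33.6 in cKO (1.30 ± 0.24, edgeR adjusted p = 0.0195), Plin2 at 230, 201 and 197 against 330 and 434 (0.87 ± 0.20, adjusted p = 0.0425), and Abca1 at 119, 126 and 109 against 53.1 and 68.0 (-0.95 ± 0.18, adjusted p = 0.0188). The groups did not overlap in any of the 3. Without cKO IFNγ replicate 1 they still passed, at 1.41, 1.08 and -0.77, and Fabp5 passed too (-0.74, edgeR adjusted p = 0.0217), as it did without replicate 2 (-2.71, adjusted p = 1.31e-05). Leaving out a WT library lost the calls of Plin2 (0.83–0.95, any of the 3, adjusted p up to 0.157) and Abca1 (-0.90 to -1.01, any of the 3, up to 0.0653), and that of Nr1h3 for replicates 1 and 3 (1.18 and 1.27, up to 0.0926). The monocyte list, with 1 higher and 1 lower of 3 tested, summed to 29.3–40.2 CPM in WT and 92.2–178 in cKO, and the 10 interferon-induced genes to 4200–6031 against 12298–13355. Of 93 further lipid genes tested, 17 were higher and 21 lower with IFNγ in WT (40.1% of all genes passed), and 17 higher and 19 lower in cKO (33.6%). Among them were the cholesterol 25-hydroxylase Ch25h (3.78 ± 0.51 in WT, 2.91 ± 0.60 in cKO), the PPAR coactivator Ppargc1b (3.15 ± 0.26 and 3.18 ± 0.33), the phospholipid transporter Abcb4 (-3.26 ± 0.21 and -2.98 ± 0.29) and Angptl4 (-2.88 ± 0.45 and -4.13 ± 0.79).

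Over the days of culture efflux genes rose in WT cells, while Plin2 and Cd36 were called lower in calls that depended on single libraries. Between days 3 and 7 of WT culture 4 genes were higher and 2 lower (23.9% of all genes passed). Apoe was at 168, 77.3 and 49.3 CPM on day 3, 324, 249 and 287 on day 5, and 861, 3482 and 471 on day 7. The day 7 libraries were all above those of day 3, by 4.03 ± 0.64 (edgeR adjusted p = 0.0007). Abcg1 was at 39.4, 24.9 and 26.5 CPM on day 3, 266, 24.6 and 32.1 on day 5, and 339, 355 and 243 on day 7, a change of 3.37 ± 0.71 between days 3 and 7 (edgeR adjusted p = 0.00405). Abca1 was at 250, 63.1 and 42.3 CPM, then 587, 141 and 151, then 496, 1422 and 673, a change of 2.87 ± 0.68 (edgeR adjusted p = 0.00776). These 3 calls were kept whichever library was left out, but that of Abca1 was not kept under every other alternative. On day 5 WT replicate 1 stood apart with day 7 levels of Abcg1 and Abca1, and the library nearest to it outside its group was WT day 7 replicate 3. Plin2 fell from 999, 879 and 1027 CPM to 629, 346 and 281, by -1.21 ± 0.33 (edgeR adjusted p = 0.0171), lost without day 7 replicate 2 or 3 (-1.09 and -1.01, adjusted p up to 0.0682). Cd36 went from 1876, 1163 and 1094 CPM to 1113, 271 and 458 (-1.17 ± 0.38, edgeR adjusted p = 0.037) and Pparg from 9.95, 12.1 and 13 to 23.3, 18.5 and 14.6 (0.69 ± 0.23, adjusted p = 0.0423). The Cd36 groups overlapped and its call was kept in 2 of 6 fits without 1 library, all but those without day 3 replicates 1 and 2 and day 7 replicates 2 and 3 (-0.81 to -1.27), and it came to -1.92 without day 7 replicate 1. The call of Pparg was kept in 1 of 6, without day 7 replicate 3 (others 0.50–0.76, adjusted p up to 0.143).

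Steps of 2 days gave 0 calls among these genes by edgeR. WT day 5 against day 3 (2.64% of all genes) had 5 members at an unadjusted p under 0.05 and 1 by DESeq2, and WT day 7 against day 5 (0.238%) had 3 and 1. In cKO, day 5 against day 3 (3.59%) had 1 and 0, and day 7 against day 5 (0.0564%) 0 and 0. Day 7 against day 3 in cKO also gave 0 by edgeR, where 14% of all genes passed, with 1 member at an unadjusted p under 0.05 and 0 by DESeq2. In cKO cells Apoe went from 192, 112 and 80.6 CPM on day 3 to 194, 314 and 242 on day 7 (0.96 ± 0.58, edgeR adjusted p = 0.297) and Abcg1 from 198, 149 and 166 to 167, 273 and 308 (0.54 ± 0.65, adjusted p = 0.634). The change of the genotype effect from day 3 to day 7 was -3.07 ± 0.83 for Apoe (edgeR adjusted p = 0.116), -2.83 ± 0.93 for Abcg1 (adjusted p = 0.182) and -1.86 ± 0.90 for Abca1 (adjusted p = 0.329); 0 members passed, 3 had an unadjusted p under 0.05, DESeq2 called 1, and 0.0439% of all genes passed by edgeR.

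**Figure D4:**
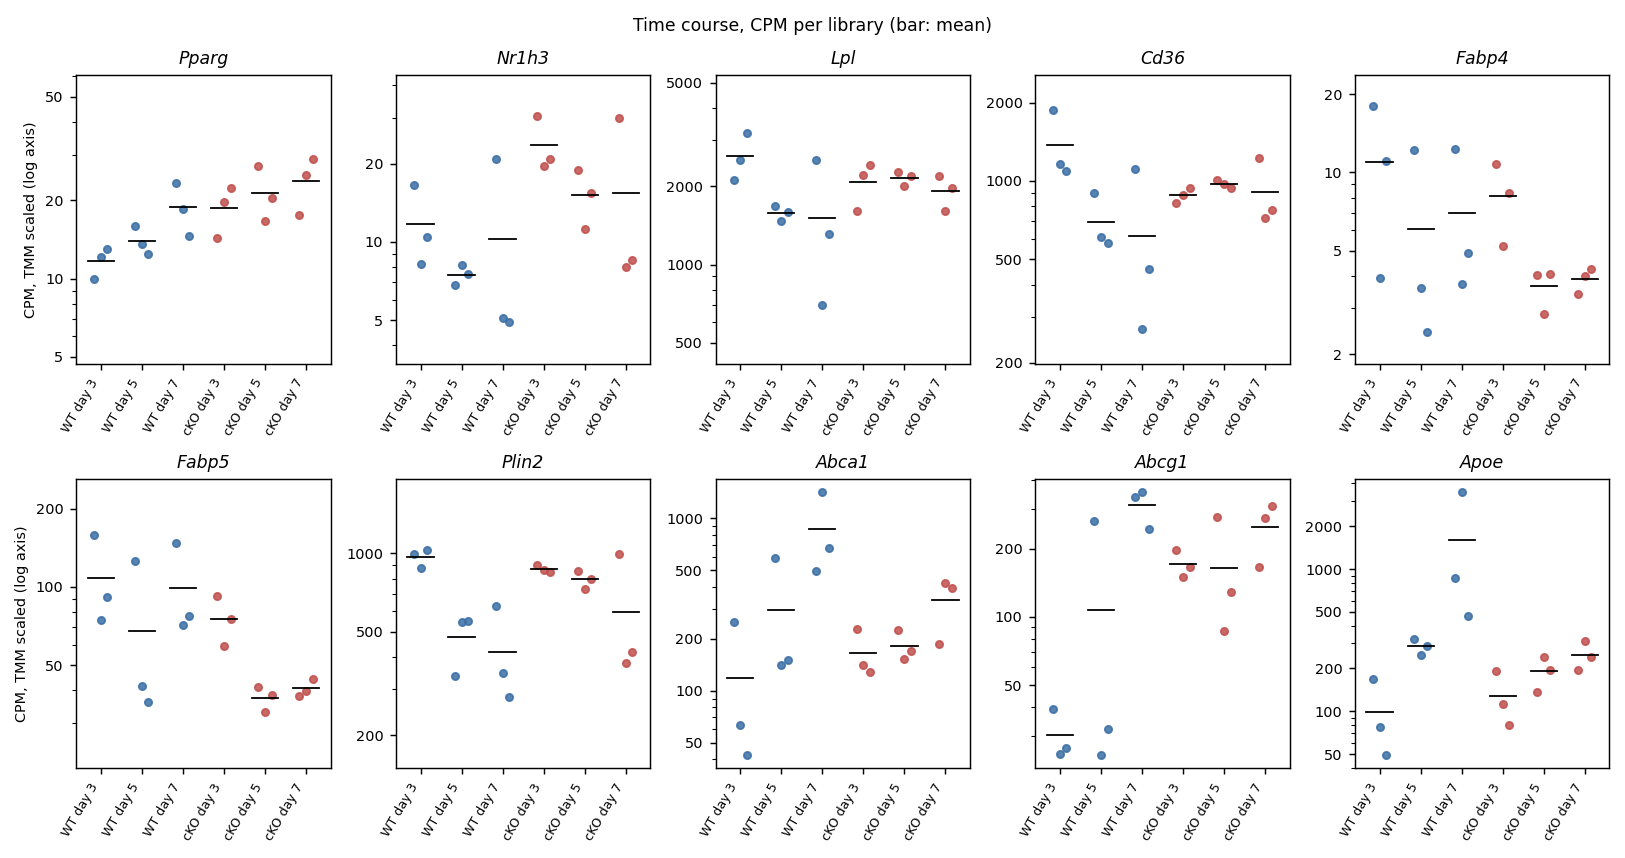
Levels of the 10 genes in CPM (vertical log axes, 1 point per library, bar at the mean) in WT and cKO BMDMs on days 3, 5 and 7 of culture (horizontal axis). In WT, Abcg1 goes from 24.9–39.4 CPM on day 3 to 243–355 on day 7, and in cKO it already stands at 149–198 on day 3.

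Between genotypes within a day, 1 gene was called on day 3, 0 on day 5 and 1 on day 7. On day 3, where 7.73% of all genes passed, Abcg1 was at 39.4, 24.9 and 26.5 CPM in WT and 198, 149 and 166 in cKO, all cKO above all WT by 2.50 ± 0.69 (edgeR adjusted p = 0.0345). That call was lost with each of the 6 libraries left out in turn, at 2.36–2.70 and adjusted p up to 0.128. On day 5 (2.83%) 0 members passed by edgeR, 2 had an unadjusted p under 0.05 and DESeq2 called 0; Abcg1 was at 0.61 ± 0.65 with WT replicate 1 and at 2.53 (edgeR adjusted p = 0.00905) without it. On day 7 (1.40%) Apoe was at 861, 3482 and 471 CPM in WT and 194, 314 and 242 in cKO, all lower, by -2.68 ± 0.61 (edgeR adjusted p = 0.039). Without WT day 7 replicate 2, the highest library, it was -1.42 (adjusted p = 0.185), and the call was also lost without any cKO day 7 library (-2.53 to -2.86, adjusted p up to 0.169). With the replicate number as a block 2 members passed on day 7. Fabp5 was at 147, 71.3 and 77.4 CPM against 38.2, 39.8 and 44.2 on day 7, without overlap, at -1.28 ± 0.41 (edgeR adjusted p = 0.126). Neutrophil markers, none at 0 and 11 of 11 lower on day 7 than day 3 in WT, summed to 1688–3238 CPM in WT and 2924–4540 in cKO on day 3 and to 76.9–136 and 94.9–293 on day 7, and the interferon-induced genes to 26.1–44.7 CPM in WT and 1171–1663 in cKO on day 3. On day 7 the interferon-induced genes overlapped, at 224–1324 and 935–1694 CPM. Monocyte markers, 2 of 5 higher in cKO on day 3, summed to 253–531 CPM in WT and 848–1194 in cKO on that day, and stromal markers, 0 of 4 tested passing, to 4.54–40.7 and 87.4–126 on day 7. Their part in the results of these days was not tested. Of 100 further lipid genes, 2 were higher and 10 lower in cKO on day 3, 1 and 4 on day 5, and 0 and 1 on day 7; Stab1, a scavenger receptor, fell on each day (-1.67 ± 0.25, -1.38 ± 0.25 and -1.09 ± 0.25), and Rxra, the common partner of PPARγ and LXRα, on days 3 and 5 (-1.49 ± 0.24 and -1.02 ± 0.24). In WT 20 of them were higher and 15 lower on day 7 than on day 3, where 23.9% of all genes passed, with 9 lower and 1 higher of 17 droplet and triglyceride genes.

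In the antibody experiment, cKO BMDMs held more Abcg1 than WT without antibody and with the control antibody, while under the IFNAR1 antibody the genotypes overlapped. With no antibody 4 genes were higher and 0 lower in cKO (7.10% of all genes passed). Abcg1 was at 89.5, 92.3 and 76.7 CPM in WT and 216, 212 and 234 in cKO (1.36 ± 0.19, edgeR adjusted p = 0.000895), and with the control antibody at 110, 81.8 and 110 against 296, 276 and 296 (1.52 ± 0.19, adjusted p = 0.000358). Neither pair of groups overlapped, and both calls were kept whichever library was left out. Without antibody Plin2 was at 497, 491 and 447 CPM in WT and 1629, 1487 and 1793 in cKO (1.77 ± 0.46, edgeR adjusted p = 0.0305), Abca1 at 329, 125 and 214 against 507, 543 and 572 (1.28 ± 0.36, adjusted p = 0.0451), and Nr1h3 at 5.32, 2.68 and 3.24 against 10.2, 12.3 and 13 (1.66 ± 0.48, adjusted p = 0.0488). All 3 were higher in every cKO library than in any WT library. Each was called only in the fit without WT replicate 1 among those that left out 1 of the 6 libraries (others 1.70–1.84 for Plin2, 0.99–1.32 for Abca1 and 1.47–1.75 for Nr1h3, adjusted p up to 0.214). With the control antibody (4.45%) 1 gene was higher and 1 lower, the latter Apoe, at 6878, 5705 and 5606 CPM in WT and 2831, 3347 and 3147 in cKO (-0.96 ± 0.26, edgeR adjusted p = 0.047), a call lost with any of the 6 libraries left out (-0.86 to -1.02, adjusted p up to 0.168). With the IFNAR1 antibody (0.675%) 0 members passed by edgeR, 1 had an unadjusted p under 0.05 and DESeq2 called 0; Abcg1 was at 124, 187 and 95.9 CPM in WT and 200, 160 and 167 in cKO (0.38 ± 0.19, edgeR adjusted p = 0.458).

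The blocking antibody experiment asks which differences depend on type I interferon signalling. Against the control antibody in cKO, Abcg1 was lower with the IFNAR1 antibody, at 200, 160 and 167 CPM beside 296, 276 and 296 (-0.72 ± 0.19, edgeR adjusted p = 0.0464). It was the 1 member called, where 4.03% of all genes passed. The groups did not overlap, but the call was lost with any of the 6 libraries left out, at -0.65 to -0.82 and adjusted p up to 0.16. Between the same groups the 10 interferon-induced genes, 1 higher and 2 lower, summed to 183–310 CPM with the control and 136–186 with the IFNAR1 antibody, above 22.6–25.5 in WT with the IFNAR1 antibody, and stromal markers, 0 of 5 tested passing, to 166–302 and 43.5–86.6. Their part in the Abcg1 value was not tested. Without antibody the cKO mean of Abcg1 was 221 CPM, beside 289 with the control and 176 with the IFNAR1 antibody. The IFNAR1 antibody against none was not tested in cKO. In WT the IFNAR1 antibody against the control (9.89%) called 1 gene higher and 2 lower. Lpl was at 885, 591 and 711 CPM with the control and 2149, 2380 and 1350 with the IFNAR1 antibody (1.43 ± 0.37, edgeR adjusted p = 0.0279), Plin2 at 1824, 1812 and 1936 against 217, 329 and 1048 (-1.81 ± 0.46, adjusted p = 0.0256), and Cd36 at 1760, 2109 and 2098 against 947, 1075 and 1592 (-0.72 ± 0.20, adjusted p = 0.0365). In WT without antibody the mean levels were 1393 CPM for Lpl, 478 for Plin2 and 1073 for Cd36. They were 729, 1857 and 1989 CPM with the control and 1960, 531 and 1205 with the IFNAR1 antibody. The IFNAR1 antibody against none was not tested in WT either. In all 3 genes, WT IFNAR1 replicate 3 lay nearest to the control libraries. Without it the values were 1.63, -2.77 and -0.98 and passed, and without any other of the 6 libraries none passed (1.26–1.61, -1.43 to -1.82 and -0.58 to -0.78, adjusted p up to 0.149). The genotype difference in that response passed for 0 members and 0 of all genes (0%) by edgeR, with 1 member, Abcg1 (-1.15 ± 0.27, adjusted p = 0.323), and 975 genes at an unadjusted p under 0.05, and 1 member by DESeq2.

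In WT, some of these genes also differed between the control antibody and no antibody. Whether the antibody or another difference between these cultures lay behind this was not tested. Against no antibody 4 were higher and 0 lower (8.90% of all genes passed): Plin2 went from 497, 491 and 447 CPM to 1824, 1812 and 1936 (1.96 ± 0.47, edgeR adjusted p = 0.021). Nr1h3 went from 5.32, 2.68 and 3.24 CPM to 13.9, 13.3 and 15.1 (1.91 ± 0.48, edgeR adjusted p = 0.0263), Cd36 from 1240, 953 and 1025 to 1760, 2109 and 2098 (0.89 ± 0.20, adjusted p = 0.0177), and Apoe from 3031, 3638 and 2994 to 6878, 5705 and 5606 (0.91 ± 0.26, adjusted p = 0.0418). None of these groups overlapped. The fits without 1 of the 6 libraries kept Cd36 in 2 and Plin2 and Nr1h3 in 1 each, always those without WT no-antibody replicate 1 or, for Cd36, also control replicate 1, and Apoe in 0 (ranges 0.81–1.01, 1.91–1.98, 1.72–2.25 and 0.79–1.01, adjusted p up to 0.134). In cKO (1.46%) 0 members passed by edgeR, 1 had an unadjusted p under 0.05 and DESeq2 called 0; Plin2 was at 1629, 1487 and 1793 CPM without antibody and 2064, 1915 and 1580 with it. Stromal markers, 0 of 5 tested passing, summed to 13.2–98.4 CPM in WT without and 13.4–223 with the control antibody. Of 98 further lipid genes, 9 were higher and 6 lower in cKO without antibody (7.10% of all genes passed), 3 and 6 with the control (4.45%) and 0 and 0 with the IFNAR1 antibody (0.675%). Colec12 rose (2.53 ± 0.59 and 2.23 ± 0.58) and the lipoprotein receptor Vldlr fell (-2.53 ± 0.51 and -2.44 ± 0.52) in the first 2.

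**Figure D5:**
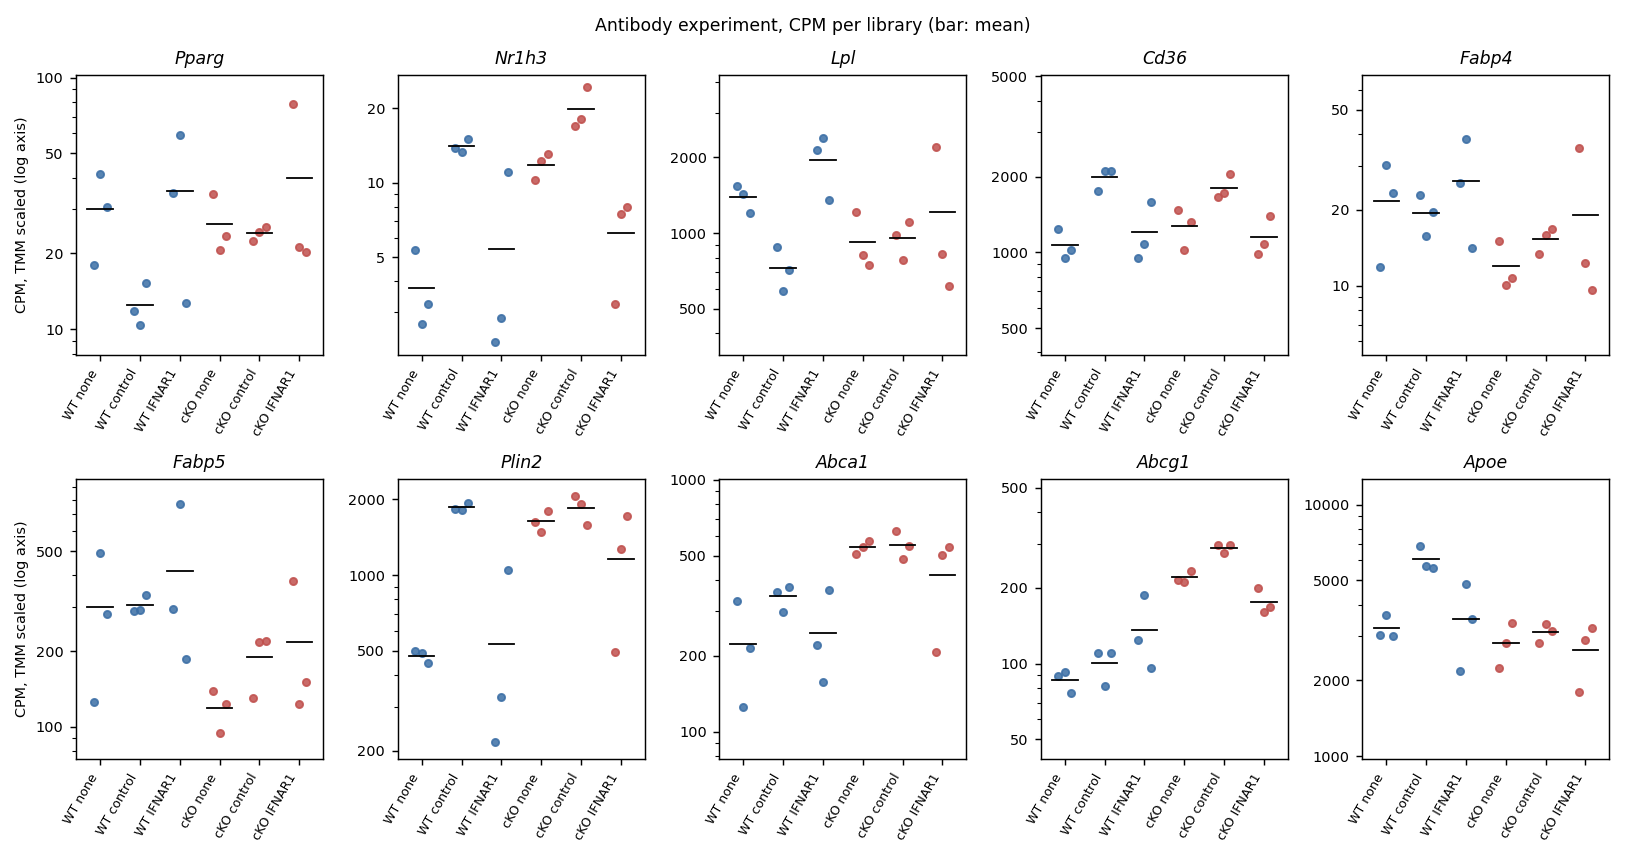
Levels of the 10 genes in CPM (vertical log axes, 1 point per library, bar at the mean) in WT and cKO BMDMs with no antibody, control antibody or IFNAR1 antibody (horizontal axis). Abcg1 separates the genotypes at 76.7–110 against 212–296 CPM in the first 2 conditions, and 1 library of each IFNAR1 group lies apart from the other 2 in Pparg, Nr1h3 and Plin2.

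In peritoneal macrophages Apoe was the 1 gene called, lower in cKO, where 0.971% of all genes passed. It was at 21822, 15588 and 20101 CPM in WT and 7989, 4263 and 6381 in cKO, with no overlap and a log2 fold change of -1.63 ± 0.25 (edgeR adjusted p = 0.0263). The call was lost without WT replicate 3 (-1.62, adjusted p = 0.0751), cKO replicate 2 (-1.42, adjusted p = 0.0529) or cKO replicate 3 (-1.64, adjusted p = 0.112). Replicate 3 of each genotype had Xist and the other 4 libraries Y-linked transcripts. Cd36 was at 1194, 1013 and 1233 CPM against 568, 758 and 407, also without overlap, and did not pass (-0.99 ± 0.23, edgeR adjusted p = 0.135). Abcg1, low in these cells, was at 18.2, 6.74 and 14.2 CPM against 22.0, 29.5 and 25.7 (0.99 ± 0.33, edgeR adjusted p = 0.349). Fabp4 was at 646, 376 and 329 CPM in WT and 670, 421 and 382 in cKO, the 1 comparison in which it was not lower, with a 95% interval of the log2 difference from -0.46 to 0.72. Large peritoneal macrophage markers summed to 3976–4917 CPM over both genotypes and to at most 34.4 in cultured cells, and 2 of 5 monocyte markers passed as higher in cKO, summing to 202–278 CPM in WT and 562–930 in cKO. Of 97 further lipid genes 2 were higher and 1 lower, namely the lysosomal glycoprotein gene Gpnmb (2.51 ± 0.37), Myo1d (1.86 ± 0.29) and the lipoprotein-associated phospholipase Pla2g7 (-1.39 ± 0.20).

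Over the 27 group means, and as a description only, since groups of 1 experiment share culture and scaling, the members closest to each other were Plin2 and Nr1h3 (Pearson r = 0.85 of log2 CPM centred within each experiment), Cd36 and Lpl (0.70) and Fabp4 and Fabp5 (0.62). Among 8662 expressed genes, the 3 most similar to each member were Cdk18, Dgkd and Psd3 for Pparg (r = 0.86, 0.86 and 0.84), Mtf1, Nubp2 and Brpf3 for Nr1h3 (0.93, 0.93 and 0.91), and Prrc2c, Gm14636 and Pcna for Lpl (0.94, 0.88 and 0.88). They were Bzw1, Cct8 and Cct6a for Cd36 (0.87, 0.85 and 0.84), Tec, Snx3 and Ube2q2 for Fabp4 (0.90, 0.89 and 0.87), Brk1, Aldh2 and Gdpd1 for Fabp5 (0.89, 0.85 and 0.85), and Dph2, Smarcb1 and Ing5 for Plin2 (0.95, 0.94 and 0.94). For the efflux genes they were Mylip, Chd6 and Tnrc6b for Abca1 (0.86, 0.85 and 0.85), 9930111J21Rik1, Trim12a and H2-T24 for Abcg1 (0.90, 0.89 and 0.87), and Tprgl, Mthfsl and Tbc1d14 for Apoe (0.79, 0.78 and 0.76).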

How the data were processed

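RNA-seq libraries of WT and cKO macrophages were sequenced by the authors, who per their methods and processing notes trimmed reads with Cutadapt and aligned them with STAR to mm10 (versions and gene annotation not given in the sources used here). The deposited files hold raw counts per gene from STAR, in an unstranded column and 2 strand columns. The unstranded counts were used here, without the 4 summary lines, and no normalized value was taken from the authors. The gene lists of the files differed between experiments and were joined by identifier within an experiment; 55450 of 55517 identifiers had a symbol, and all 10 genes passed the filter in all 5 experiments. The labels give 1 library kit for all samples while the methods give another for peritoneal macrophages, so levels there rest on an unclear protocol.

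Genes were filtered with filterByExpr (count 10, total 15), scaled by TMM and tested with edgeR 4.0.16 in R 4.3.3 (quasi-likelihood F test, all groups of an experiment in 1 model, Benjamini-Hochberg adjustment over all genes, called under 0.05); 95% intervals use the standard error, taken as the log2 fold change divided by the root of F. The scripts were tested on simulated data. Scaling by relative log expression (RLE) moved no log2 fold change of a member by more than 0.0569. Alternatives were DESeq2 1.42.0, RLE, no filter, the groups compared alone, the strand column with the larger total, a replicate block, each library left out, and each cKO set alone for the doubles. Replicate numbers paired samples (every correlation of deviations over 0.1) for cKO against WT on days 3 and 7 and in the peritoneum, cKO day 7 against days 5 and 3, and in WT for IFNγ against untreated and control against no antibody. The labels number the libraries of a group as biological replicates and do not say whether each came from a separate mouse, so p-values measure the spread between these libraries. Named were all 10 members, the 3 genes most similar in pattern to each, and up to 3 rises and 3 falls per comparison from the 7 pathway lists (called, with groups that did not overlap). The members, lists and tests were chosen with earlier results of these data known. For 2 day 8 cKO libraries the labels contradict each other on IFNγ, and they were left out of all comparisons.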

Additional observations from a re-analysis of the deposited data

Results flagged for a closer look

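The effect of the cKO differed between sets in 8 genes, by a test of the difference itself (set 2 minus the mean of sets 1 and 3, edgeR adjusted p under 0.05), a comparison added after seeing the data. On the log2 scale the difference was -0.83 for Pparg, -1.18 for Cd36, -1.16 for Lpl, -0.67 for Plin2, 0.75 for Abca1, 0.39 for Abcg1, -0.97 for Nr1h3 and -1.15 for Apoe. The libraries of set 2 carried Xist and those of sets 1 and 3 Y-linked transcripts, and the 2 cannot be told apart here.

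Cd36 was flagged in the time course because every cKO library lay below every WT library on day 3 (log2 fold change -0.64) and above on day 5 (0.49). The difference between these days was not tested, and neither change passed alone.

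The 2 day 8 cKO libraries left out of all groups were flagged for Nr1h3, at 21.3 CPM in the first and 22.4 in the second, above the WT untreated range of 13.04–17.98 but inside the cKO ranges of 17.1–23.6 without and 13.3–29.9 with IFNγ, and for Abcg1 at 722 CPM in the second, inside the 289–821 of IFNγ-treated cKO libraries. These levels and ranges are CPM without TMM scaling.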

How the results depend on the processing

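Of 85 called values of members, 38 were kept under every alternative tried, 48 in every fit that left out 1 library and 47 under every other alternative. Depth, 3614967 counts in the smallest library, and 2 or 3 libraries a group limit what could be seen, and leaving a library out of a pair leaves 1 that is assumed to vary like the other groups. Directions reversed in 7 values: with IFNγ in cKO Fabp5 was 0.50 without IFNγ replicate 1 and Lpl -0.66 without replicate 2, Pparg in StingKO was 0.012 against set 1 and 0.067 against set 3 alone, and in MavsKO against set 2 alone Pparg was -0.18, Fabp5 0.24 and Lpl -0.084. The cause was not tested. With the other IFNγ library of that group left out Fabp5 was -1.48 and Lpl 0.65, in the direction of the fit to all libraries.

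Counts of members called changed as follows. With only the groups compared, which leaves fewer residual degrees of freedom, they were 2 (day 3), 0 (day 7), 1 (WT day 5 against 3), 2 (WT day 7 against 3), 1 (cKO day 5 against 3), 2 (cKO day 7 against 3), 1 (day 7 minus day 3), 2 (day 8 untreated), 0 (day 8 IFNγ), 2 (IFNγ in cKO), 6 (control antibody), 0 (IFNAR1 against control in either genotype) and 3 (control against none in cKO). Without a filter they were 2 (day 7), 4 (WT day 5 against 3), 1 (WT day 7 against 5), 2 (day 7 minus day 3), 1 (day 8 untreated), 4 (peritoneal), 6 (IFNAR1 against control in WT) and 2 (in cKO). DESeq2 gave 2 (day 7), 1 (WT day 5 against 3), 1 (WT day 7 against 5), 1 (day 7 minus day 3), 1 (day 8 untreated), 2 (peritoneal), 6 and 3 (IFNAR1 against control in WT and cKO) and 1 (IFNAR1 difference between genotypes). RLE gave 1 (control antibody) and 0 (IFNAR1 against control in cKO), and the strand column 1 (control antibody). Against 1 set alone StingKO had 5 (set 1), MavsKO 0 (set 2) and Irf7KO 0 (set 1 or 3).

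With the replicate number as a block, counts were 2 (day 7), 5 (IFNAR1 against control in WT) and 2 (in cKO), and no other count changed by more than 1.5 times. In the last 2 comparisons not every correlation of deviations was over 0.1. They were 0.03, 0.08 and 0.17 in WT and 0.14, 0.09 and 0.09 in cKO. Whether these samples share more than a number is not known.

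With 1 library left out, counts ranged from 0 to 0 (day 3), 0 to 1 (day 5), 0 to 3 (day 7), 0 to 2 (WT day 7 against 5), 3 to 6 (WT day 7 against 3), 0 to 1 (cKO day 7 against 3), 0 to 1 (day 7 minus day 3), 0 to 6 (day 8 IFNγ), 3 to 7 (IFNγ in cKO), 0 to 3 (IFNγ difference between genotypes), 0 to 1 (peritoneal), 1 to 5 (no antibody), 1 to 1 (control antibody), 0 to 1 (IFNAR1 antibody), 0 to 7 and 0 to 0 (IFNAR1 against control in WT and cKO), 0 to 3 (control against none in WT), 2 to 6 (Irf7KO) and 5 to 10 (set 2 minus sets 1 and 3).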

Other observations

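The 2 unplaced cKO libraries of day 8 differed from each other in the genes that IFNγ moved (CPM without TMM scaling). Abcg1 was at 154 CPM in the first and 722 in the second, beside 175–185 in untreated and 289–821 in IFNγ-treated cKO libraries. Fabp4 was at 16.5 and 2.67 CPM, beside 18.5–23.3 and 1.11–2.83. Abca1 was at 127 and 49.7 CPM, beside 160–169 and 24.3–60.5. Pparg was at 33.4 and 10.1 CPM, beside 31.6 and 31.6 in the untreated and 5.81–11.2 in the treated libraries. Both libraries had Xist and no Y-linked transcripts. They were assigned to no group, and no value of theirs enters a comparison.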
